A study of Mus musculus with 4 samples.

Results

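Blood mononuclear cells of SM/J mice were compared with those of BL/6 mice at 20 months of age, once over all kept cells and once without 2 kinds of cells that were abundant in SM/J. Kept cells had 500 or more UMIs (counted RNA molecules) from 200 or more genes, with no more than 10% of them mitochondrial. They were summed by the tag oligo with the most counts in each cell. This gave 2710 SM/J and 3144 BL/6 cells, 5854 of the 11721 kept cells of the series. The 2 kinds set apart were cells with at least 5 UMIs of Zcwpw1 and cells with at least 5 UMIs of Prg4, called Zcwpw1 cells and Prg4 cells here.

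The series profiled BL/6 and SM/J mice, inbred strains without an introduced allele, at 12 and 20 months; sex was not given, and SM/J is studied for spontaneous degeneration of spinal discs. Blood came from the heart, a density gradient gave the mononuclear cells, and a slow spin against platelets and a lysis of red cells came before 10x Genomics 3' sequencing. Both ages of a strain shared 1 multiplexed 10x run, so strain and run cannot be told apart. Each strain and age had 3 tag oligos; what a tag stands for, such as 1 animal, is not stated, so cells sharing a tag are called an aliquot, differences carry no p-value, and the spread of aliquots may be technical.

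Mononuclear cells of blood are mainly B cells, T cells, natural killer (NK) cells and monocytes. A sum over all of them can differ between strains because the strains hold the types in other proportions or because the same type transcribes a gene at another level. Macrophages marked by Prg4 and Gata6 are known from the peritoneal and other body cavities rather than from blood, and Zcwpw1, a reader of histone marks, is known mainly for its role in meiosis.

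A gene is called higher or lower when it had at least 100 UMIs over both strains, its log2(CPM + 1) differed by at least 1 (CPM, UMIs per 1000000), and the 3 aliquots of 1 strain lay above the 3 of the other. Differences are SM/J minus BL/6, with 95% intervals that cover counting error only. Aliquot values are in the order CMO310, CMO311 and CMO312 for SM/J and CMO304, CMO305 and CMO306 for BL/6. Summed depth was 29930676 UMIs in SM/J and 19194702 in BL/6, with a median per cell of 8922.5 and 4961. Without Zcwpw1 and Prg4 cells the medians were 5269 and 4889. The median mitochondrial share was 5.13% in SM/J and 3.63% in BL/6, and 5.87% in the Zcwpw1 cells of SM/J. The strains shared 2 cell barcodes among kept cells.

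Both kinds of cells set apart were common in SM/J and rare in BL/6. Zcwpw1 cells were 37.5%, 31.6% and 33.8% of the 3 SM/J aliquots and 0.376%, 0.109% and 0.343% of the BL/6 aliquots. Over all kept cells this was 923 SM/J cells, 34.1% (exact 95% interval 32.3 to 35.9), and 9 BL/6 cells, 0.286% (0.131 to 0.543). With a mitochondrial limit of 5% in place of 10% the difference in share was 14.9 percentage points. Prg4 cells were 15.6%, 15.4% and 13.4% of the SM/J aliquots and 1.03%, 1.53% and 1.11% of the BL/6 aliquots, or 400 and 38 cells. For both kinds the lowest SM/J aliquot was far above the highest BL/6 aliquot. Together they made up 48.6% of SM/J cells and 72.2% of its UMIs, against 1.49% of cells and 3.61% of UMIs in BL/6. At 12 months Zcwpw1 cells were 0.988% of SM/J and 1.42% of BL/6 cells.

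Few cells lay just beside the limit of 5 UMIs. In SM/J 126 cells had 1 or 2 UMIs of Zcwpw1, 26 had 3 or 4, 29 had 5 or 6 and 894 had more. For Prg4 385 cells had 1 or 2 UMIs, 9 had 3 or 4, 3 had 5 or 6 and 397 had more. Of the 725 B cell-like cells of SM/J left without the 2 kinds, 31 (4.28%) were in cluster 27, which was led by Zcwpw1. In BL/6 5 of the 9 Zcwpw1 cells had only 5 or 6 UMIs. Over all kept cells Zcwpw1 was at 857, 816 and 830.1 CPM in SM/J and 9.76, 5.91 and 9.68 CPM in BL/6. Prg4, which encodes the joint lubricant lubricin, was at 1080, 1163 and 1038 CPM in SM/J and 118, 114 and 108 CPM in BL/6. Their levels without the 2 kinds are fixed in part by the limit: Zcwpw1 was then at 28.9, 20.6 and 25.4 CPM in SM/J and 5.84, 5.07 and 6.19 CPM in BL/6.

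Among cells named from marker genes after clustering, 885 Zcwpw1 cells of SM/J were B cell-like and 21 plasma cell-like. Of the Prg4 cells, 395 in SM/J and 37 in BL/6 were in 1 cluster that was led by Prg4, Alox15 and C1qa and detected 15 of 15 cavity macrophage markers. The light chain V segment with the most UMIs was Igkv14-126 in 420 of 839 Zcwpw1 cells of SM/J with any such UMI (50.1%) and Igkv17-127 in 234 (27.9%). Igkv14-126 also led in 5 of the 7 BL/6 Zcwpw1 cells with such a UMI. In SM/J the share led by Igkv14-126 was at most 50.5% and at least 49.7% in the 3 aliquots. Outside the Zcwpw1 cells, the most frequent leading segment of SM/J B cell-like cells was Igkv2-109, in 55 of 398 cells (13.8%), and in BL/6 it was Igkv1-117, in 41 of 353 (11.6%).

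The class shares of the strains were set side by side in cells without called doublets. B cell-like cells were 60.0% of SM/J and 30.7% of BL/6 cells, a difference of 29.3 percentage points (26.8 to 31.7). T cell-like cells were 8.64% and 17.1%, classical monocyte-like cells 3.65% and 15.0%, and nonclassical monocyte-like cells 6.41% and 22.7%. For each of these classes the 3 aliquots of a strain lay on 1 side of the other strain's. Without Zcwpw1 and Prg4 cells the T cell-like share was 16.8% in SM/J and 17.3% in BL/6, a difference of -0.53 points (-2.87 to 1.90). The B cell-like share still differed, at 52.5% and 30.9%, and so did the classical monocyte-like share, at 7.02% and 15.2%, and the nonclassical monocyte-like share, at 12.4% and 23.1%. Droplets named platelet-like were 0 of 2685 in SM/J (exact upper limit 0.137%) and 174 of 3101 in BL/6 (5.61%). This depends on the naming of clusters. Cluster 25, left without a name, had platelet as its best match, with 7 platelet markers detected. It held 23 SM/J cells (0.857%) and 3 BL/6 cells (0.0967%). A share is of captured cells, and the slow spin against platelets can set the platelet value.

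**Figure D1:**
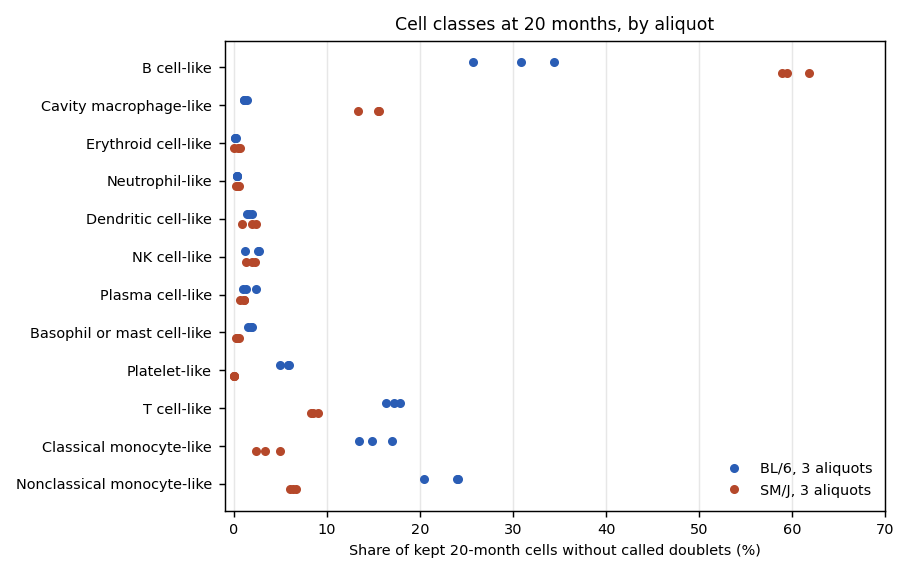
Share of kept 20-month cells (%, x axis) in each named cell class (y axis), with 1 point for each of the 3 aliquots of BL/6 (blue) and SM/J (red). For B cell-like cells the SM/J points lie between 58.9% and 61.9% and the BL/6 points between 25.7% and 34.4%, while the monocyte-like and T cell-like points lie to the left in SM/J.

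Over all kept cells 11689 genes were tested and 2300 called (19.7%), 1058 higher (9.05%) and 1242 lower (10.6%) in SM/J. Without Zcwpw1 and Prg4 cells 10321 genes were tested and 720 called (6.98%), 307 higher (2.97%) and 413 lower (4.00%). Of the 2300 genes, 563 (24.5%) were called the same way in both comparisons. Of the other 1737, 1099 kept their sign at a difference under 1, 547 fell under 100 UMIs, 82 turned sign and 9 had overlapping aliquots. Leaving out Zcwpw1 cells alone gave 1195 calls (10.9%), 675 higher (6.18%) and 520 lower (4.76%). Leaving out Prg4 cells alone gave 2565 (22.8%), 920 higher (8.16%) and 1645 lower (14.6%). With TMM scaling, which moved the median gene by 0.15, 56.4% of the calls in all kept cells were higher against 46.0% with CPM. When cells were instead set apart by 1 UMI after thinning each to 1000 UMIs, 1198 genes were called the same way in both comparisons.

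**Figure D2:**
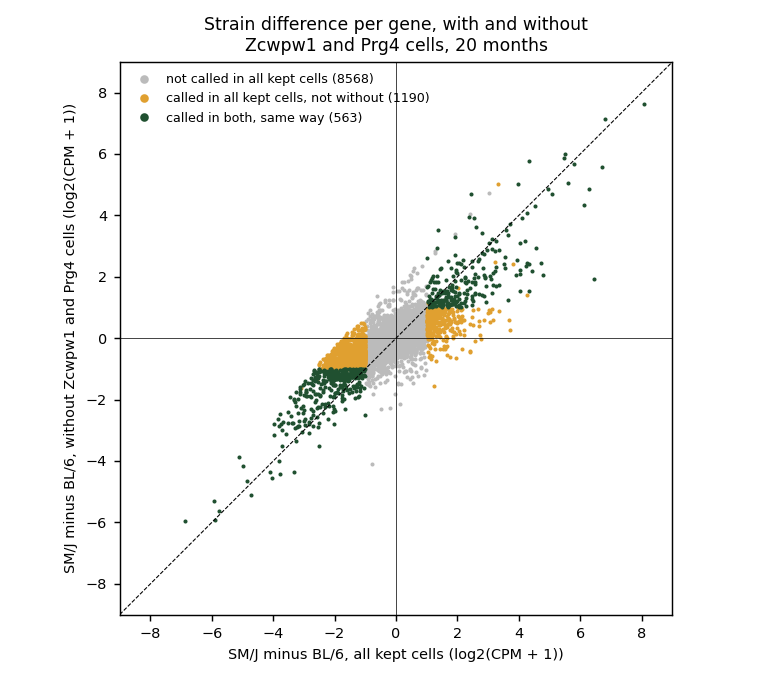
SM/J minus BL/6 difference of log2(CPM + 1) for 10321 genes tested in both comparisons, over all kept cells (x axis) and without Zcwpw1 and Prg4 cells (y axis). Each point is a gene; 563 genes (green) were called in both, 1190 (orange) were called in all kept cells only or not the same way, and 8568 (grey) were not called in all kept cells.

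Marker genes of T cells show what the removal did. All 14 T cell markers were called lower over all kept cells, with a median difference of -1.94 against -0.11 for all genes tested. Without Zcwpw1 and Prg4 cells 2 of 14 (Lef1 and Cd8b1) were called, and among T cell-like cells 0 were. Cd3e, a chain of the T cell receptor complex, was at 19.2, 21.5 and 21.3 CPM in SM/J and 50.6, 57.6 and 57.2 CPM in BL/6 over all kept cells, a difference of -1.37 (-1.51 to -1.23). Without the 2 kinds it was at 75.3, 71.8 and 66.7 CPM in SM/J and 52.4, 59.6 and 58.7 CPM in BL/6, a difference of 0.31 that was not called. The SM/J aliquots lay below those of BL/6 in the first comparison and above them in the second.

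Markers of nonclassical monocytes, NK cells and proliferation also lost most or all of their calls. Of 10 nonclassical monocyte markers 10 were called lower over all kept cells and 0 without the 2 kinds, and of 10 NK cell markers 8 were called lower, while of the 9 tested without the 2 kinds 0 were lower and Ncr1 was higher. Of 15 cavity macrophage markers, a list that holds Prg4 itself, 12 were called higher over all kept cells, and 3 higher and 2 lower of the 11 tested without the 2 kinds. Of 15 proliferation genes 11 were called higher, with a median of 2.16, and 0 of the 7 still tested without the 2 kinds. Mki67, a marker of cycling cells, was at 68.0, 41.6 and 48.0 CPM in SM/J and 5.44, 6.93 and 10.7 CPM in BL/6, and at 5.86, 9.53 and 5.08 against 3.67, 7.17 and 11.1 CPM without them. The aliquots of the strains did not overlap in the first comparison and did in the second. Of the 7 platelet markers tested 6 were called lower over all kept cells and 7 without the 2 kinds.

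Other lists were counted in both comparisons, where 19.7% and 6.98% of all genes were called. Of 11 Fc receptor genes 1 (Fcrl5) was called higher and 4 lower (Fcgr2b, Fcgr4, Fcer1g and Fcer2a) both over all kept cells and without the 2 kinds. Fcer1a, which this list did not hold, was called lower in both, with differences of -2.108 and -1.465. Fcer1g, the signalling chain shared by several Fc receptors, differed by -1.52 (-1.57 to -1.47) without the 2 kinds. It was then at 430, 395 and 422 CPM in SM/J and 1180, 1276 and 1116 CPM in BL/6. Classical and nonclassical monocyte-like shares were also lower in SM/J there, at 7.02% and 12.4% against 15.2% and 23.1% in BL/6. The part of this mix in the Fc receptor calls was not tested. Of 13 B cell markers 7 were called higher and 3 lower over all kept cells, and 5 higher and 1 lower without the 2 kinds. Ighm, the IgM heavy chain, was at 4299, 4622 and 4531 CPM in SM/J and 530, 431 and 647 CPM in BL/6 over all kept cells, a difference of 3.05 (3.02 to 3.08), and differed by 2.02 without the 2 kinds.

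**Figure D3:**
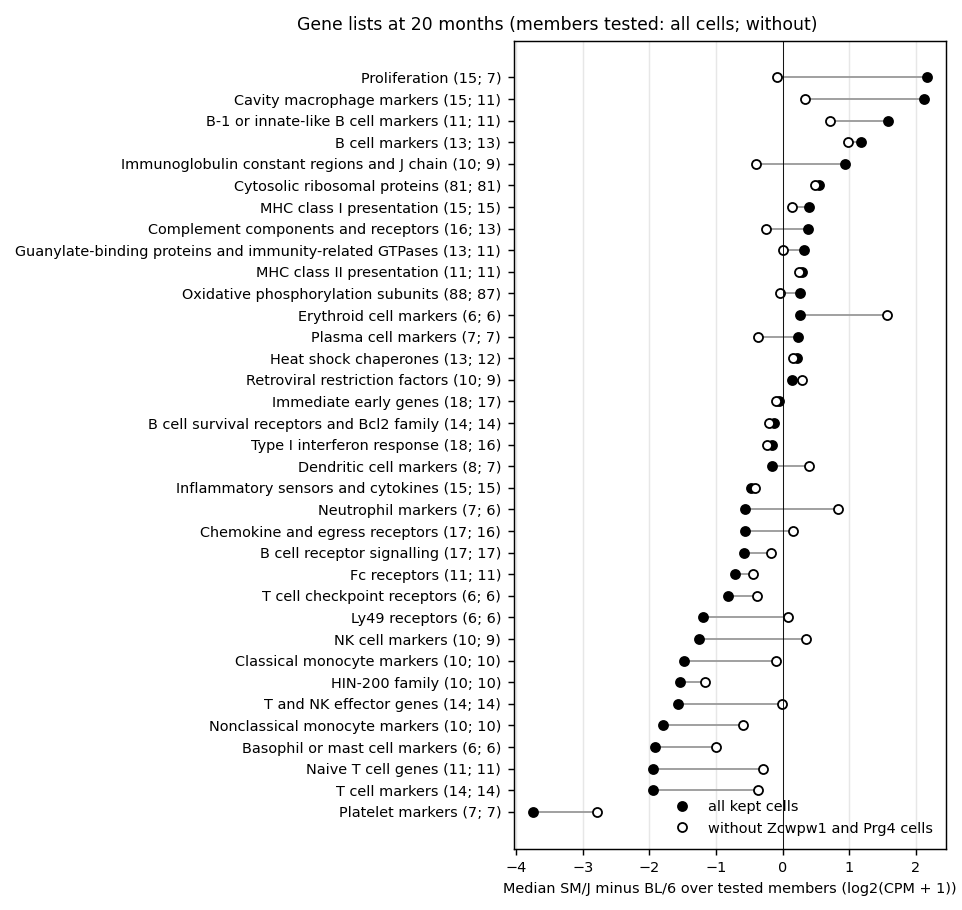
Median SM/J minus BL/6 difference of log2(CPM + 1) (x axis) over the tested members of each gene list (y axis, with the number tested in each comparison), in all kept cells (filled) and without Zcwpw1 and Prg4 cells (open). The T cell median went from -1.94 to -0.37 and the proliferation median from 2.16 to -0.09, while the HIN-200 median was -1.55 and -1.16 over 10 members, a list that does not hold Ifi202b, which was higher in both.

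Genes called over all kept cells and not without the 2 kinds included Gnb3, a G protein subunit, at 122, 112 and 126 CPM in SM/J and 0.320, 0.169 and 0.854 CPM in BL/6. Its difference was 6.36 (6.00 to 6.64), and without them it had under 100 UMIs and was not tested. On the lower side Ccr2, the receptor by which classical monocytes leave the marrow, had 68.7, 59.1 and 89.7 CPM in SM/J and 399, 430.5 and 396 CPM in BL/6. Its difference of -2.48 (-2.55 to -2.42) became -0.79. Satb1, a chromatin organiser of T cells, went from -2.50 to -0.84. In these cases the aliquots of the strains were well apart over all kept cells.

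Another set was called both with and without the 2 kinds. Stab2, a scavenger receptor known from liver sinusoids (chromosome 10, 86841198 to 87008025, GRCm38), was at 151, 151 and 155 CPM in SM/J and 0.160, 0.507 and 0.427 CPM in BL/6. Its difference was 6.81 (6.45 to 7.07) over all kept cells and 7.13 without the 2 kinds. Ifi202b, an interferon-inducible HIN-200 gene (chromosome 1, 173962568 to 173982744), was at 41.5, 45.1 and 44.3 CPM in SM/J and had 0 UMIs in BL/6, at least 280-fold higher against a floor of 3 counts per strain. Without the 2 kinds it was at least 351-fold higher. Spata7, a gene of photoreceptor cilia, differed by 5.79 and 5.67. Fras1, an extracellular matrix gene, had 3553 UMIs in SM/J and 3 in BL/6, a ratio of CPM of 759 (260 to 3685). Without the 2 kinds the ratio was 335 (114 to 1631). Fras1 was the leading gene of cluster 23, which was left in by the removal. That cluster held 180 SM/J and 2 BL/6 cells there, 24.8% and 0.212% of the B cell-like cells. The part of this cluster in the Fras1 difference was not tested. Each of these 4 genes was also called higher in SM/J at 12 months.

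On the lower side Skint3, a member of a family of immunoglobulin-like genes (chromosome 4, 112232245 to 112300468), had 0 UMIs in SM/J and 67.4, 62.7 and 45.7 CPM in BL/6, at least 578-fold lower. Without the 2 kinds it was at least 164-fold lower. Hpgd, which breaks down prostaglandins, was at 0.887, 1.27 and 1.01 CPM in SM/J and 130, 125 and 85.8 CPM in BL/6. Its difference was -5.77 over all kept cells and -5.62 without the 2 kinds. Agbl1, a carboxypeptidase gene, differed by -5.92 and -5.29. Adrb1, the beta-1 adrenergic receptor, had 2 UMIs in SM/J and 568 in BL/6. Pi16, which encodes a secreted peptidase inhibitor, differed by -4.05 over all kept cells and was at least 61.9-fold lower without the 2 kinds, with 0 UMIs in SM/J. These 5 genes were called lower at 12 months as well.

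Igha and Saa3 were also called in both comparisons, with other values beside them. Igha, the constant region of IgA, was at 4.06, 54.3 and 3.72 CPM in SM/J and 1158, 2136 and 1176 CPM in BL/6 without the 2 kinds, a difference of -5.94. Plasma cell-like cells numbered 5 in SM/J and 46 in BL/6 there, and Igha was not called at 12 months. Saa3, an acute phase protein, was at 655, 470 and 503 CPM in SM/J and 15.3, 14.5 and 21.4 CPM in BL/6 without the 2 kinds, a difference of 4.86. In the cavity macrophage-like cells of SM/J it was at 19580, 22970 and 22670 CPM, and the part of RNA set free by those cells was not tested.

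**Figure D4:**
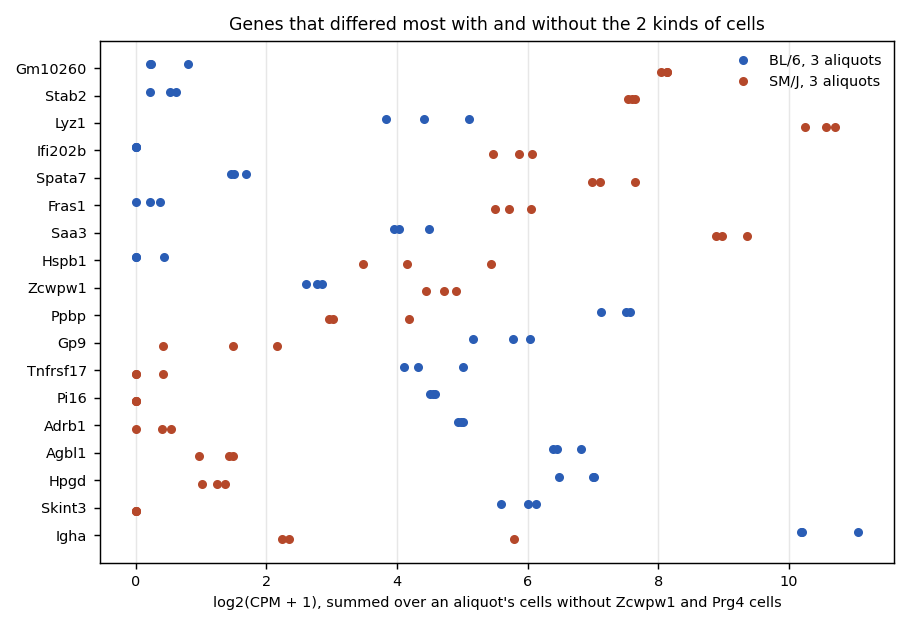
Level of 18 genes (y axis) in each aliquot as log2(CPM + 1) without Zcwpw1 and Prg4 cells (x axis), BL/6 in blue and SM/J in red, 3 points each. The genes were chosen as those that differed most among genes called with and without the 2 kinds, so the gap between colours is a description; Igha has 1 SM/J aliquot (54.3 CPM) apart from the others.

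Several large differences lay in genes with a near-identical copy elsewhere in the genome. Among tested genes with a transcript in the reference, 1.69% matched another gene over at least 300 of their last 500 bases at 95% identity or more. The share was 9.09% (17 of 187) among genes called with a difference of at least 3, and 19.2% (10 of 52) without the 2 kinds. The length of 300 bases was set after hits of at least 100 bases had been seen; at 100 bases the shares were 4.13%, 12.8% and 26.9%. Gm10260 (chromosome 13, 97760072 to 97760632) matches Rps18, a protein of the small ribosomal subunit (chromosome 17, 33951999 to 33956001), at 99.0% over 485 bases. The stretches below run over bases 367 to 456 of the Rps18 coding sequence, both from the GENCODE vM21 transcripts, with capitals where they differ.
Rps18: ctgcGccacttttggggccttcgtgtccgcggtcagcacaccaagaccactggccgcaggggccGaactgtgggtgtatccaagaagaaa
Gm10260: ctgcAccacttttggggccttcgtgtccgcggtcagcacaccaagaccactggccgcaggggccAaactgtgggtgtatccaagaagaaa

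These 90 bases differ at 2 positions, and Gm10260 had the largest positive difference over all kept cells among the 10321 genes tested in both comparisons. Its level was 379, 390.2 and 373 CPM in SM/J and 0.160, 0.169 and 0.854 CPM in BL/6, a difference of 8.07 (7.71 to 8.34). Rps18 was at 2005, 1931 and 1960 CPM in SM/J and 2274, 2300.0 and 2387 CPM in BL/6, a difference of -0.24. Summed over both genes the difference was 0.01. Another copy, Gm11361, differed by 5.59, and summed over all 3 genes the difference was 0.16. Tpm3-rs7 and Tpm3, a tropomyosin, match at 98.5% over 460 bases; Tpm3-rs7 differed by 4.96 and their sum by 0.28.

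Lyz1 and Lyz2, neighbouring lysozyme genes of chromosome 10, match at 97.0% over 501 bases, and at 95.05% over 444 bases of coding sequence. The stretch below, like that of Rps18 above, was chosen as the 90 coding bases with the most differences. Capitals mark where the genes differ.
Lyz2: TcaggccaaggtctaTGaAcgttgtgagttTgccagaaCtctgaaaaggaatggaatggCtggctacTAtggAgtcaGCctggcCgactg
Lyz1: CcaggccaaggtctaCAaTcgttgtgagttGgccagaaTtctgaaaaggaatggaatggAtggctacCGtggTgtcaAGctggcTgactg

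These 90 bases differ at 13 positions. Lyz1 was at 1544, 1693 and 1771 CPM in SM/J and 34.1, 50.4 and 25.5 CPM in BL/6, a difference of 5.50 (5.397 to 5.61). Lyz2, the lysozyme of myeloid cells, was at 2017, 2212 and 2349 CPM in SM/J and 7263, 7740 and 7070 CPM in BL/6, a difference of -1.74. The sum of both differed by -0.93. Reads of SM/J mice were counted on a reference named mm10, which is made from another strain, and the part of reads moved between copies was not tested.

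Within classes the calls were fewer, and a gene also had to reach 0.25 times its level in the highest other class of at least 30 cells. This limits RNA set free by other cells, but the Zcwpw1 cells of the B cell-like class did not count towards that level. Zcwpw1 cells held 53.3% of SM/J UMIs, and the part of RNA set free by them in the calls was not tested. In T cell-like cells 138 of 4329 genes were called (3.19%), in NK cell-like cells 19 of 589 (3.23%), in classical monocyte-like cells 246 of 5462 (4.50%) and in nonclassical monocyte-like cells 201 of 5824 (3.45%). In B cell-like cells without the 2 kinds the count was 563 of 6329 (8.90%). T cell-like and NK cell-like cells of the strains shared clusters, but the T cell-like mix differed. Cluster 11, with Lef1 and Tcf7 among its leading genes, held 23.3% of this class in SM/J and 41.7% in BL/6, and cluster 14, with Ikzf2 and Icos, held 40.9% and 25.3%. The part of this mix in the T cell-like calls was not tested. B cell-like and monocyte-like cells mostly did not: 465 classical monocyte-like cells of BL/6 were in cluster 3, while 93 of 98 in SM/J were in cluster 26, which held 0 BL/6 cells.

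In B cell-like cells 199 genes were higher (3.14%) and 364 lower (5.75%), and TMM scaling turned this split to 294 higher and 234 lower. Of 13 B cell markers 4 were lower, namely Cr2, Fcer2a, Ebf1 and Ighd. Fcer2a, the low-affinity IgE receptor of follicular B cells, was at 38.4, 32.6 and 43.1 CPM in SM/J and 225, 226 and 182 CPM in BL/6, a difference of -2.42 (-2.67 to -2.18). Of the 6 B-1 markers tested 5 were higher, namely Ctla4, Fcrl5, Bhlhe41, Zbtb32 and Plscr1. Bhlhe41, a transcription factor of B-1 cells, was at 71.4, 58.6 and 66.9 CPM in SM/J and 19.6, 22.9 and 30.8 CPM in BL/6, a difference of 1.33. H2-Oa, H2-Ob and H2-Eb2 of the MHC class II list were lower, 3 of 11. Apobec3, a restriction factor of retroviruses, was at 10.7, 22.3 and 16.6 CPM in SM/J and 358, 393 and 393 CPM in BL/6, a difference of -4.39. Since the clusters that hold these cells differ between strains, a different mix of B cell subsets and a different level per cell cannot be told apart.

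In T cell-like cells 55 genes were higher (1.27%) and 83 lower (1.92%), or 41 and 114 with TMM scaling. Members of the HIN-200 family, sensors of nucleic acids next to each other on chromosome 1, were lower in 5 of 7 tested, namely Ifi206, Ifi213, Ifi209, Ifi208 and Mndal. Mndal was at 11.0, 43.3 and 33.6 CPM in SM/J and 180.3, 185 and 175 CPM in BL/6, a difference of -2.46 (-3.00 to -1.97). In B cell-like cells 4 of 5 members tested were lower, with Mndal at -3.57. Over all kept cells 7 of the 10 listed members tested were lower and Ifi211 was higher, and without the 2 kinds 6 were lower, again with Ifi211 higher. The list left out 2 genes of the family: Ifi202b, which was higher in both comparisons as given above and had the largest difference of the family, and Ifi214, which differed by -1.16 over all kept cells and was called, and by -0.14 without the 2 kinds and was not. Ifi213 matches Ifi208 at 96.0% over 495 bases, and the sum of both differed by -2.80 over all kept cells. Lsamp, a neural adhesion gene, was at 523, 285 and 137 CPM in SM/J T cell-like cells and 1.02, 0 and 0.897 CPM in BL/6. This was 313 UMIs against 2, a ratio of CPM of 460 (126 to 3819).

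In NK cell-like cells, 50 in SM/J and 66 in BL/6, 4 genes were higher (0.679%) and 15 lower (2.55%), or 3 and 25 with TMM scaling. Lsamp was higher there too, with 115 UMIs in SM/J and 0 in BL/6, at least 65.5-fold. Gzmb, the killing protease granzyme B, was at 449, 226 and 322 CPM in SM/J and 729, 948 and 1215 CPM in BL/6, a difference of -1.56 (-2.02 to -1.13). With so few cells 589 genes had enough UMIs to be tested.

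Classical monocyte-like cells had 108 genes higher (1.98%) and 138 lower (2.53%), or 55 and 219 with TMM scaling. Clustering at resolution 2.0 left 245 BL/6 cells in this class in place of 465, while a cluster without a name, led by Aif1 and Tmem176b, held 259 BL/6 cells. At that resolution 139 of the 246 calls were kept. The cluster that kept the name was led by Mmp8, Chil3 and F13a1, and the part of this choice in the marker differences was not tested. Taking classes from marker levels alone, with 42 SM/J cells, kept 53. Of 7 genes of MHC class II presentation 5 were lower, namely Ciita, H2-Ab1, H2-Aa, H2-Eb1 and Cd74. H2-Ab1, a class II chain, was at 91.9, 308 and 251 CPM in SM/J and 869, 1419 and 1028 CPM in BL/6, a difference of -2.22 (-2.44 to -2.01). The SM/J aliquots spread over 3-fold but stayed below those of BL/6. Of 9 classical monocyte markers tested Chil3, F13a1 and Vcan were higher, Vcan by 3.58. Ifi202b had 280 UMIs in SM/J and 0 in BL/6, at least 523-fold higher.

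Nonclassical monocyte-like cells had 83 genes higher (1.43%) and 118 lower (2.03%), or 67 and 151 with TMM scaling. Taking classes from marker levels alone, with 64 SM/J cells, kept 104 of the 201 calls. Of 5 Fc receptor genes tested Fcgr2b and Fcgr4 were lower and Fcgrt was higher. Fcgr2b, the inhibitory IgG receptor, was at 2.98, 14.8 and 7.00 CPM in SM/J and 124, 94.4 and 112 CPM in BL/6, a difference of -3.49 (-4.37 to -2.71). Adrb1 had 0 UMIs in SM/J and 528 in BL/6, at least 45.0-fold lower. Cd22, a sialic acid receptor known from B cells, was at 292, 290 and 329 CPM in SM/J and 11.6, 5.59 and 1.89 CPM in BL/6, a difference of 5.36. Cd22 was the 1 B cell marker tested in this class.

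No gene was called in all 5 classes, where 373 genes could be tested in each. Higher in 4 classes were Gdpd3, Sfi1, Stab2 and Tpm3-rs7, and lower in 4 were Rpl29, Rps2 and Ubb. Stab2 had 0 BL/6 UMIs in B cell-like cells, where it was at least 244-fold higher. In BL/6 it had 2 UMIs in T cell-like, 2 in classical and 1 in nonclassical monocyte-like cells, which gave ratios of CPM of 288 (78.8 to 2398), 342 (92.6 to 2853) and 1220.0 (217 to 48350). Ubb, which encodes polyubiquitin, fell by 1.54 in B cell-like, 1.34 in T cell-like, 1.55 in NK cell-like and 2.36 in classical monocyte-like cells. Tpm3-rs7, Rpl29 and Ubb are among the genes with a near-identical copy; Ubb matches Gm8797 at 98.2% over 384 bases. Summed with the copy, Ubb still differed by -1.13 over all kept cells, and Rpl29 with its copy Gm3550 by -1.67. In the opposite case 12 genes were called higher in 1 class and lower in another, among them Fcgrt and Id2, of 6182 tested in at least 2 classes.

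**Figure D5:**
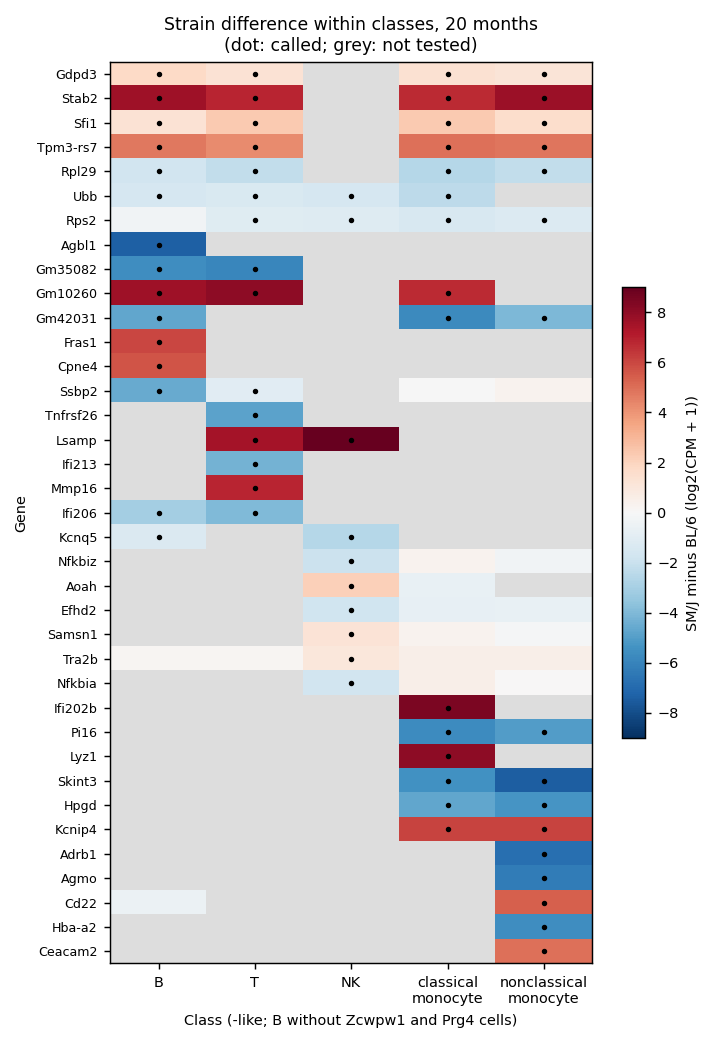
SM/J minus BL/6 difference of log2(CPM + 1) (colour) for genes (rows) in 5 cell classes (columns), B cell-like cells without Zcwpw1 and Prg4 cells; a dot marks a called gene and grey a gene not tested in that class. Stab2 is dark red in 4 classes, from 6.73 to 7.71 as fitted with a pseudocount of 1, while Lsamp is tested in T cell-like and NK cell-like cells only.

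The cavity macrophage-like class, 397 cells in SM/J and 38 in BL/6, was compared after its size had been seen. Clustering at resolution 2.0 set apart cluster 6, with 356 SM/J and 3 BL/6 cells, from cluster 5, which both strains shared, with 33 and 35. Of 6089 genes 530 were called (8.70%), 391 higher (6.42%) and 139 lower (2.28%), or 507 and 100 with TMM scaling. Of 13 genes of MHC class I presentation 5 were higher, with H2-K1 at 2098, 2086 and 2015 CPM in SM/J and 929, 862 and 704 CPM in BL/6, a difference of 1.31 (1.18 to 1.45). Retnla, a secreted protein of alternatively activated macrophages, was at 84.0, 105 and 68.1 CPM in SM/J and 1687, 437 and 1951 CPM in BL/6, a difference of -3.99. Within cluster 5 alone, 201 of 2283 genes were called, 74 of them among the 530 and the same way. H2-K1 differed by 1.11 (0.963 to 1.27) there and Retnla by -4.54 (-5.02 to -4.08), and both were called.

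The strain difference was set beside the same comparison at 12 months, which shares the 10x runs. Over all kept cells 682 genes were called at 12 months (6.31%), 323 higher (2.99%) and 359 lower (3.32%), and 422 were called the same way at both ages, 18.3% of the 20-month and 61.9% of the 12-month calls. Without the 2 kinds 688 were called at 12 months (6.46%), 317 higher (2.98%) and 371 lower (3.49%), and 314 at both ages, 43.6% and 45.6% of the calls. Without the 2 kinds the number of calls was thus similar at the 2 ages, while over all kept cells it was larger at 20 months. Zcwpw1 itself differed by -0.25 at 12 months and was not called.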

How the data were processed

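The authors deposited unnormalised UMI counts for every gene and cell. The header of each matrix names Cell Ranger 7.0.1; mm10 and Seurat 4.3.0 are named in the submitters' processing notes, and the annotation is not given in the sources used here. All 4 matrices were read, and 0 columns of per-sample values were left unused. The cells, gene lists and rules were chosen with earlier results of these data known. Counts were summed per strain and aliquot and scaled to CPM; intervals are conditional binomial (Clopper-Pearson), for counting error only, and intervals of share differences are Newcombe's.

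Classes came from scanpy 1.11.5: doublets by Scrublet (rate 0.06), 2000 variable genes, 30 components, 15 neighbours and Leiden clusters at resolution 1.0, named from 13 marker lists. After the clusters had been seen, B and B-1 markers were counted as 1 class where leading genes were held against a name. Genes named are the 10 with the largest differences each way called with and without Zcwpw1 and Prg4 cells, the 6 each way called only with them, the 6 each way per class, genes called in at least 4 classes (the rule asked for every class, which no gene met), called list members and genes opposite at 12 months; genes with a provisional symbol were named only among the 3 largest each way. Tpm3, Rps18, Lyz2, Gm8797, Gm11361 and Gm3550 were added as copies, a search run with BLAST 2.17.0 after the differences had been seen. Ifi214 was added as a family member left out of its list, and Id2 as a gene called in opposite directions between classes. Positions are from GENCODE vM21. TMM factors came from edgeR 4.0.16, with no test, and Python 3.11.15 was used throughout.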

Additional observations from a re-analysis of the deposited data

Results flagged for a closer look

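Over all kept cells 25 genes were called in opposite directions at the 2 ages, with the aliquots of the strains apart at both ages, and the naming rule took 6 of them. Without Zcwpw1 and Prg4 cells 8 genes were called in opposite directions. The difference between ages was not tested, since each strain had 1 library, which held both ages, and aliquots are not known to be animals. Plekhg1 differed by 2.25 at 20 months and by -2.60 at 12 months. Adgrl3 differed by -2.78 at 20 months and 2.07 at 12 months, with SM/J aliquots from 5.99 to 8.70 CPM and BL/6 aliquots from 48.6 to 65.9 CPM at 20 months. Dapl1 differed by -1.95 and 1.501, Gzmm by -1.45 and 1.54, Lilra5 by -1.43 and 1.39, and Glt1d1 by -1.46 and 1.38, each at 20 and then 12 months. Without the 2 kinds at 20 months, Adgrl3 differed by -1.45 and was called, and at 12 months by 2.07. The other 5 were not called at 20 months without the 2 kinds, where Plekhg1 had under 100 UMIs, Dapl1 differed by -0.39, Gzmm by 0.02, Lilra5 by -0.22 and Glt1d1 by -0.57.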

How the results depend on the processing

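Alternatives were run for 36 of the named genes over all kept cells and 53 within classes, and for the differences in cell shares, and 0 of these changed sign. The gene values moved by more than the wider side of their 95% counting interval in 139 of 646 alternatives over all kept cells and in 16 of 573 within classes. The median of all genes did change sign with TMM scaling: from -0.11 to 0.03 over all kept cells, -0.17 to 0.01 in B cell-like, 0.02 to -0.09 in T cell-like, 0.06 to -0.09 in NK cell-like, 0.09 to -0.12 in classical and 0.05 to -0.04 in nonclassical monocyte-like cells. The share of higher calls over all kept cells was 46.0%, but 56.4% with TMM scaling, 53.8% with the mean of each cell's CPM and 55.4% with a mitochondrial limit of 5%. Counts of genes moved by over 1.5 times as follows. A pseudocount of 5 gave 606 higher and 806 lower in all kept cells and 237 lower without the 2 kinds. The mean of each cell's CPM gave 765 lower in all kept cells. A mitochondrial limit of 5% gave 605 lower, and 219 lower without the 2 kinds, and moved the share differences to 14.9 points for Zcwpw1 cells and 17.1 for Prg4 cells. A minimum of 10 UMIs gave 660 higher without the 2 kinds, where higher calls were then 53.9% against 42.6%, and the cut at 1 UMI in thinned cells 567 higher and 780 lower. A minimum of 50 UMIs gave 251 calls in T cell-like, 53 in NK cell-like, 400 in classical and 309 in nonclassical monocyte-like cells. Within cluster 5 of the clustering at resolution 2.0 the cavity macrophage-like cells gave 201 calls, an alternative chosen after seeing the data. Cuts at 10 UMIs gave a Zcwpw1 share difference of 30.1 points. Leaving out 1 aliquot gave 939 to 1083 higher and 1149 to 1252 lower in all kept cells, 275 to 308 and 355 to 438 without the 2 kinds, and 506 to 551 calls in B cell-like, 98 to 152 in T cell-like, 15 to 24 in NK cell-like, 190 to 341 in classical and 163 to 227 in nonclassical monocyte-like cells, and 396 to 720 in cavity macrophage-like cells. The share differences were then 32.4 to 35.2 points for Zcwpw1 and 13.2 to 14.3 for Prg4 cells. The causes were not tested. Taking classes from marker levels alone kept 382 of 563 calls in B cell-like and 91 of 138 in T cell-like cells; NK cell-like cells were not run, with 28 in SM/J. No paired analysis was possible because no strain has a replicate library and tags of the strains share no number.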
